A study of Mus musculus with 2 samples.

Results

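The 8 genes described here encode 6 subunits of AMP-activated protein kinase (AMPK) and 2 kinases upstream of it. They were chosen by gene symbol, and 8 of 8 were found among the 33963 genes of the count table. Prkaa1 and Prkaa2 encode the catalytic α subunits, Prkab1 and Prkab2 the β subunits that hold the complex together, and Prkag1 and Prkag2 the γ subunits that bind AMP, ADP and ATP. Stk11 encodes LKB1 and Camkk2 encodes CaMKK2, kinases that phosphorylate the activation loop of the α subunit. AMPK is a trimer with an α, a β and a γ subunit that senses the energy state of the cell. When AMP rises, the trimer is held in its phosphorylated, active form, which slows the synthesis of fatty acids and sterols and turns on autophagy and catabolism. AICAR, the AMPK activator used in the study, is converted in cells to a nucleotide that mimics AMP at the γ subunit. Transcript counts measure neither the amount of these proteins nor their phosphorylation.

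Single-cell RNA-seq covered 5 mouse populations, each carrying its own oligonucleotide tag and pooled in a single cDNA library whose strain is given as 129/Ola. Naive cells were embryonic stem cells (mESCs) of the Rex1GFP line, and primed cells were epiblast stem cells (mEpiSCs) of the Oct4GIP line, which the methods describe on fibronectin with FGF2 and Activin A and the labels on mouse embryonic fibroblasts (MEF) ahead of the reversion. The methods keep naive mESCs in medium with 2iL, which is LIF with kinase inhibitors. Since the naive cells are of another line than all the others, state and line cannot be told apart in any comparison with them. Medium cannot be told apart from these either where naive cells are compared with primed or d16 cells. The other 3 populations came from the primed line treated with AICAR plus LIF, a cytokine of naive cultures, over 8 days (d8) or 16 days (d16), or over 16 days and then 10 passages in 2iL medium (d16+10p). For the treatment, the methods replace the medium with FGF2 and Activin A by Basal medium, which holds serum. None of the 5 populations was kept in Basal medium without AICAR and LIF. Treatment, medium and time therefore cannot be told apart in any comparison with the primed cells. Each population was 1 sample of 1 line, so no difference below has a replicate check and no test could be made. Feeder cells and cells that had left the pluripotent state were not removed from the table here.

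Several tags held cells of different kinds, and this had to be dealt with before genes of low level could be compared. The cells were clustered without the 8 genes. Pou5f1-high clusters were those with at least 25% of the highest cluster's level of Pou5f1, the Oct4 gene, and with Pou5f1 reads in at least 75% of their cells. The core of a tag is its cells in the Pou5f1-high cluster where that tag is most enriched. The cores held 516 of 801 naive cells, 420 of 1826 primed cells and 884 of 1151 d16+10p cells. The naive and the primed tag each held more cells than the 500 loaded for it, and the d8 and d16+10p tags more than the 9000 and 1000 loaded, which bears on values over whole tags. The cause was not tested. Of the other primed cells, 408 fell in cluster 3, an unnamed cluster made mostly of d8 cells, and 240 in a fibroblast-like cluster made mostly of d16 cells. The d8 tag had no Pou5f1-high home and was used whole, with 9627 cells. The 4315 d16 cells were split at 1000 counts per 1000000 reads (CPM) of Dppa5a, a gene of the naive state, into 1278 Dppa5a-high and 3037 Dppa5a-low cells. Of the Dppa5a-high cells, 1136 lay in the d16 home cluster. The split left 111 cells between 500 and 1000 CPM and 184 between 1000 and 2000 CPM.

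The labels of the cores were checked on their markers. The clusters that hold the naive and primed cores had 687 and 27.5 CPM of Zfp42, the Rex1 gene, and 14.9 and 48.8 CPM of Fgf5, a gene of the primed state. The median depth ranged from 8691 reads per cell in the Dppa5a-low cells to 24083 in the d16+10p core, and the mean share of mitochondrial reads from 6.42% to 7.86% in these 6 groups. No cell code occurred under 2 tags. Macrophage genes were read in every cluster. Outside the macrophage-like cluster, 8 of them kept between 11.3% and 44.1% of their level over all cells, with a median of 22.9%. Csf1r (44.1%) and Cd68 (42.5%) set the upper end, and the rest were at 24.4% or less. Whether these reads were RNA from other cells was not tested, and they are called background here. Above 24.4%, the range rests on Csf1r and Cd68 alone. A gene whose level falls into that range in a cluster cannot be told apart from this background. In a group of mixed cells, fewer cells of a type and less RNA per cell cannot be told apart either.

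In GRCm38, Prkaa1 lies at chr15:5143861-5181899 on the plus strand, Prkaa2 at chr4:105029874-105109890 on the minus strand, Prkab1 at chr5:116013586-116024508 on the minus strand and Prkab2 at chr3:97658193-97673812 on the plus strand. Prkag1 lies at chr15:98812797-98831521, Prkag2 at chr5:24862744-25100642 and Camkk2 at chr5:122731170-122779409, all on the minus strand, and Stk11 at chr10:80115803-80130682 on the plus strand. The activation loop shows how closely related the catalytic subunits are and which bases tell the transcripts of Prkaa1 and Prkaa2 apart. Whether reads fell in this stretch cannot be seen in counts per gene. The 81 coding bases from the DFG to the APE residues of each kinase domain are given 5′ to 3′, with the bases that differ between the genes in capitals.
Prkaa1: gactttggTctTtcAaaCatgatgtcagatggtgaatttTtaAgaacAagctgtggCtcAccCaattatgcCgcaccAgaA
Prkaa2: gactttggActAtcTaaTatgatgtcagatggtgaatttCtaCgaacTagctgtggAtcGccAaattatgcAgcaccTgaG
The loops differ at 13 of 81 bases, 11 of them at the third position of a codon, and at 0 of 27 encoded residues. The threonine that LKB1 and CaMKK2 phosphorylate lies in this stretch. Both loops are split over exons 4 and 5 of 9. In GRCm38 (GENCODE M21), that of Prkaa1 lies on the plus strand at chr15:5168706-5168712 and chr15:5169929-5170002, and that of Prkaa2 on the minus strand at chr4:105051202-105051208 and chr4:105049348-105049421. Over all annotated transcripts, the longest run of identical bases was 35 between Prkaa1 and Prkaa2, 23 between Prkab1 and Prkab2, and 15 between Prkag1 and Prkag2. Stretches of 50 bases that also occur in another gene, on the opposite strand, made up 28.8% of Prkag1 (shared with B130046B21Rik), 11.5% of Prkag2 (Prkag2os1 and Prkag2os2) and 3.84% of Stk11 (Cbarp), and 0 in the other 5 genes. The mapping of the cDNA reads is described without a strand setting, so reads from these overlaps cannot be assigned with certainty. B130046B21Rik was at 1.10 to 3.14 CPM in the 6 groups, against 27.6 to 49.3 CPM of Prkag1.

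Among the α subunits, Prkaa2 varied across the stages and Prkaa1 did so less. Levels are the summed reads of a gene per 1000000 reads of the group. They can be compared between groups for a gene but not between genes, because transcripts can differ in how well they are captured. Prkaa2 was at 15.2 CPM in the naive core (95% Poisson interval 13.1 to 17.4), 6.48 in the primed core (5.00 to 8.27), 11.6 at d8 (11.1 to 12.1), 11.5 in the d16 Dppa5a-low cells (10.4 to 12.6), 17.3 in the d16 Dppa5a-high cells (15.6 to 19.2) and 12.2 in the d16+10p core (10.8 to 13.7). It was lowest in the primed core, and its highest levels, in the Dppa5a-high and naive cells, did not differ beyond counting error. Prkaa1 was at 22.8 CPM in the naive core (20.3 to 25.6), 17.3 in the primed core (14.8 to 20.03), 25.5 at d8 (24.7 to 26.2), 22.1 in the Dppa5a-low cells (20.6 to 23.7), 20.9 in the Dppa5a-high cells (19.0 to 23) and 21.6 in the d16+10p core (19.7 to 23.6). Neighbours in the order of Prkaa1 levels differed beyond counting error only between the Dppa5a-high cells and the primed core, which was lowest. Groups further apart could also differ: the interval of d8 lay above that of the Dppa5a-low cells. All intervals cover counting error only, and reads of a molecule that was amplified are not independent.

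The same order of Prkaa2 held for the share of cells with a read after every cell had been thinned to 5000 reads. That share was 6.67% in the naive core (exact binomial interval 4.66 to 9.19%), 3.41% in the primed core (1.88 to 5.66%), 5.31% at d8, 4.33% in the Dppa5a-low cells, 7.67% in the Dppa5a-high cells (6.25 to 9.30%) and 4.92% in the d16+10p core, except that the d16+10p core stood below d8. In macrophage-like cells, which serve as a background here because macrophages are known to rely on the α1 subunit, it was 1.44% (0.747 to 2.51%), at a median depth of 17428 reads before thinning. This interval overlapped that of the primed core. Whether the Prkaa2 reads of these cells are background was not tested. Before thinning, the shares were 21.3% in the naive core, 11.2% in the primed core, 16.9% in the Dppa5a-high cells and 8.43% in the Dppa5a-low cells. Over the whole tags, the level of Prkaa2 was 15.8 CPM (naive), 11.01 (primed), 13.6 (d16) and 12.8 (d16+10p). The whole primed tag, of which the core was 23% of the cells, was thus closer to d8 than to the primed core.

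**Figure D1:**
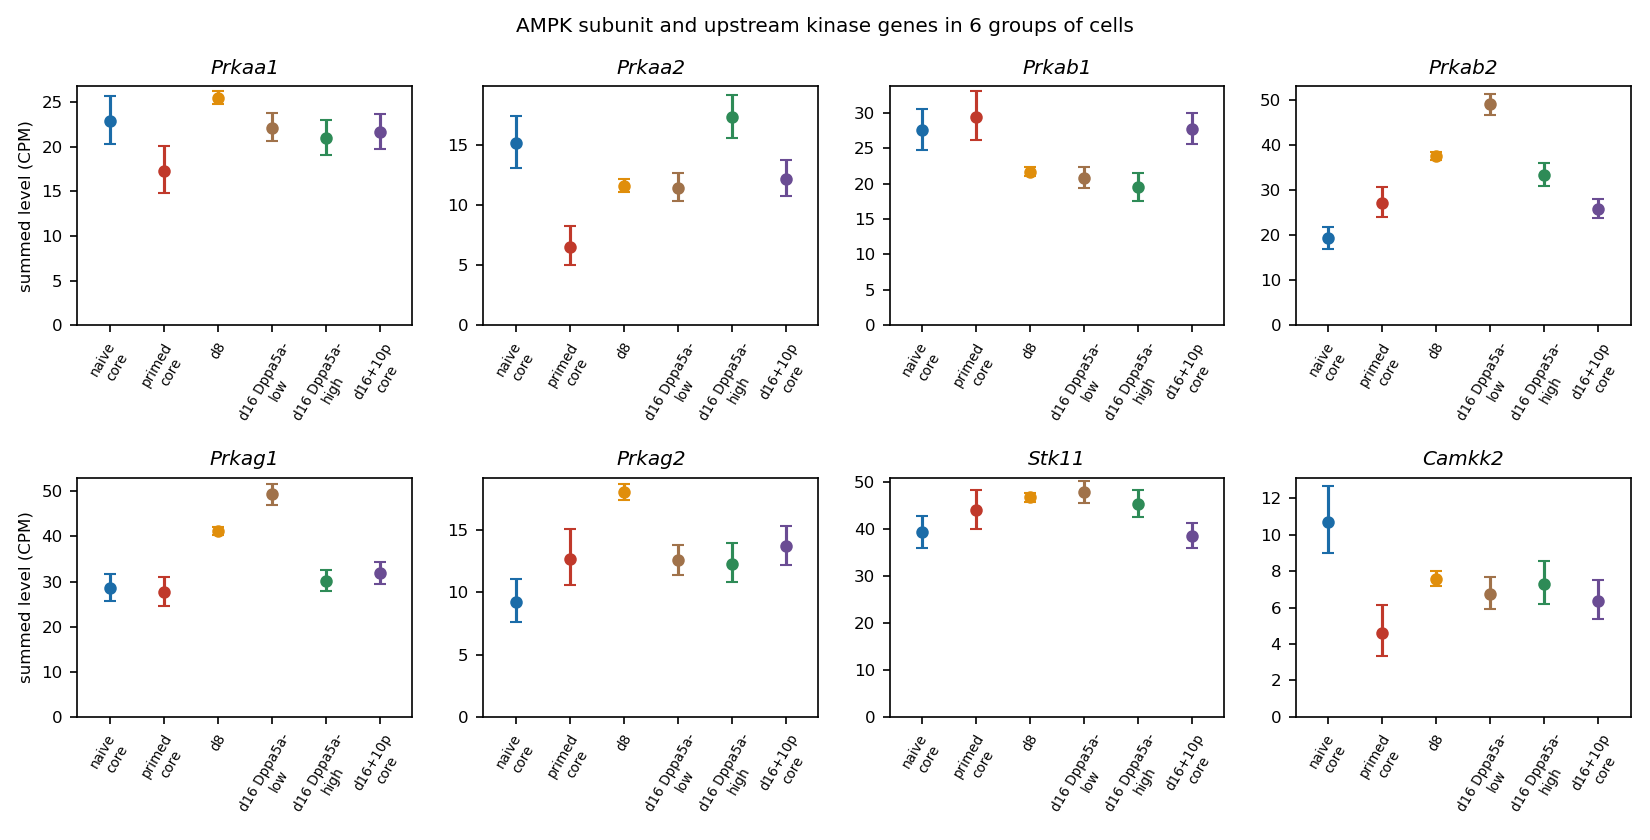
Summed level in CPM (y axis, from 0) of the 8 genes in 6 groups of cells (x axis); points are levels and bars exact 95% Poisson intervals, which cover counting error only. Prkaa2 is lowest in the primed core at 6.48 CPM, Prkab2 and Prkag1 are highest in the d16 Dppa5a-low cells at 49.1 and 49.3 CPM, and Stk11 stays between 38.5 and 47.8 CPM.

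Of the β subunits, Prkab2 was lowest in the naive core of the Rex1GFP line, followed by the d16+10p and primed cores. Prkab2 was at 19.4 CPM in the naive core (17.0 to 21.9), 27.2 in the primed core (24.1 to 30.7), 37.6 at d8 (36.7 to 38.5), 49.1 in the Dppa5a-low cells (46.8 to 51.5), 33.5 in the Dppa5a-high cells (31.0 to 36.0) and 25.9 in the d16+10p core (23.8 to 28.1). Each neighbour in this order differed beyond counting error except the primed and the d16+10p core. Prkab1 was at 27.5 CPM in the naive core (24.7 to 30.5), 29.4 in the primed core (26.2 to 33.0), 21.7 at d8 (21.01 to 22.4), 20.8 in the Dppa5a-low cells (19.3 to 22.4), 19.4 in the Dppa5a-high cells (17.6 to 21.4) and 27.7 in the d16+10p core (25.6 to 30.01). The 3 cores formed an upper set and the 3 AICAR-treated groups without passaging a lower one, and the only step beyond counting error lay between the naive core and d8. After thinning, 8.24% of the naive core and 17.0% of the Dppa5a-low cells had a Prkab2 read, and 10.2% and 7.36% had a Prkab1 read. Before thinning, Prkab2 reads were found in 27.5% and 28.4% of these cells. Over the whole tags, Prkab2 was at 22.3 CPM (naive), 38.1 (primed), 43.3 (d16) and 27.3 (d16+10p), and Prkab1 at 25.5, 23.2, 20.3 and 27.3 CPM.

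The γ subunits differed in where they were high. Prkag1 was at 28.6 CPM in the naive core (25.8 to 31.7), 27.6 in the primed core (24.5 to 31.1), 41.2 at d8 (40.3 to 42.2), 49.3 in the Dppa5a-low cells (47.0 to 51.7), 30.2 in the Dppa5a-high cells (27.9 to 32.6) and 31.9 in the d16+10p core (29.6 to 34.3). The 3 cores and the Dppa5a-high cells did not differ from their neighbours beyond counting error and lay below d8 and the Dppa5a-low cells. Prkag2 was at 9.25 CPM in the naive core (7.66 to 11.1), 12.7 in the primed core (10.6 to 15.1), 18.0 at d8 (17.4 to 18.7), 12.6 in the Dppa5a-low cells (11.4 to 13.8), 12.3 in the Dppa5a-high cells (10.9 to 13.9) and 13.7 in the d16+10p core (12.2 to 15.3). It was highest at d8 and lowest in the naive core, and neighbours among the other 4 groups did not differ beyond counting error. After thinning, a Prkag1 read was found in 8.78% of the primed core and 18.9% of the Dppa5a-low cells, and a Prkag2 read in 3.92% of the naive core and 7.68% of d8 cells. The shares before thinning were 34.3% and 29.1% for Prkag1 and 14.7% and 19.2% for Prkag2. Prkag3, which encodes the γ subunit of skeletal muscle, was at 0.399 CPM or less in the 6 groups. Over the whole tags, Prkag1 was at 33.3 CPM with the naive tag, 36.8 with the primed, 42.2 with the d16 and 32.1 with the d16+10p tag, and Prkag2 at 11.7, 18.3, 12.5 and 14.98 CPM.

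The upstream kinases behaved unlike each other. Stk11 was at 39.2 CPM in the naive core (35.9 to 42.8), 44.0 in the primed core (40.0 to 48.3), 46.7 at d8 (45.7 to 47.7), 47.8 in the Dppa5a-low cells (45.6 to 50.2), 45.3 in the Dppa5a-high cells (42.4 to 48.3) and 38.5 in the d16+10p core (36.0 to 41.2). No neighbours in the order of these levels differed beyond counting error. The interval of the d16+10p core still lay below those of d8, the Dppa5a-low and the Dppa5a-high cells. Camkk2 was at 10.7 CPM in the naive core (9.01 to 12.7), 4.59 in the primed core (3.36 to 6.12), 7.57 at d8 (7.17 to 7.98), 6.76 in the Dppa5a-low cells (5.93 to 7.68), 7.32 in the Dppa5a-high cells (6.20 to 8.58) and 6.36 in the d16+10p core (5.36 to 7.50). The naive core stood above the next group, d8, and the primed core rested on 46 reads in 36 cells, with 6.52% of them in a single cell, the highest such share among the 8 genes and 6 groups. After thinning, 4.31% (2.72 to 6.46%) of the naive and 3.66% (2.06 to 5.96%) of the primed core had a Camkk2 read, against 16.3% and 8.57% before thinning. Stk11 reads were found in 16.5% to 18.7% of the cells of the 5 groups other than d8, and in 19.2% at d8. Over the whole tags, Stk11 was at 41.3 CPM (naive), 46.4 (primed), 46.9 (d16) and 39.8 (d16+10p), and Camkk2 at 9.86, 5.31, 6.97 and 6.33 CPM.

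Groups were compared over the whole table, and a gene was called when its ratio of CPM + 1 reached 1.5-fold and the exact 95% interval of the ratio excluded no difference. Genes with 10 CPM in either group and 100 reads in both together entered. In the primed core against the naive core, which sets the starting cells beside the naive control, 0 of 8 members were higher and 2 were lower, when 12.3% of 10187 genes were higher and 14.8% lower. The lower members were Prkaa2, with a log2 ratio of -1.11 (-1.65 to -0.81), and Camkk2, with -1.07 (-1.74 to -0.73). Of the genes compared, 89.3% and 88.7% differed by less. At 5000 reads per cell the log2 ratio of Camkk2 was -0.16. That of Prkaa2 was -0.97, past 1.5-fold, but it was not called because it had fewer than the 100 reads needed to enter. Over whole tags Prkaa2 had a log2 ratio of -0.48, short of the threshold. Camkk2 had one of -0.78, past 1.5-fold, but did not enter, at 9.86 CPM (naive) and 5.31 CPM (primed). Prkab2 (0.75) and Prkag2 (0.61) were called higher, so that 0 higher and 2 lower members became 2 higher and 0 lower.

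In d8 against the primed core, which differ in treatment, medium and time, 1 of 7 members that entered was higher and 0 were lower. Of 10399 genes, 27.7% were higher and 17.7% lower. Prkaa2 had a log2 ratio of 0.75 (0.49 to 1.22). This call needed the primed core, since against the whole primed tag the log2 ratio was 0.07. Prkaa1, Prkab2, Prkag1 and Prkag2 had log2 ratios between 0.45 and 0.56, with intervals above 0, and Prkab1 one of -0.42. Macrophage-like cells were 820 of the d8 cells, and without them Prkag1 also passed 1.5-fold, at 0.62. From d8 to the d16 Dppa5a-low cells, 0 of 7 members were higher and 0 lower, beside 16.1% and 8.68% of 10879 genes. The widest differences among the members were those of Prkag2, at -0.49, and Prkab2, at 0.38.

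The d16 Dppa5a-high cells were compared with 3 groups. Against the Dppa5a-low cells of the same tag, 0 of 7 members were higher and 1 was lower, beside 21.6% and 27.4% of 11348 genes. That member was Prkag1, with a log2 ratio of -0.69 (-0.84 to -0.58), and Prkab2 with -0.54 and Prkaa2 with 0.56 stayed just short of 1.5-fold. Against the primed core, 1 of 7 members was higher and 0 were lower, beside 19.4% and 9.01% of 10400 genes. Prkaa2 had a log2 ratio of 1.29 (1.03 to 1.82), the widest of all member ratios, and 91.5% of the genes compared differed by less. It stayed past 1.5-fold under each of the other settings run for this comparison, with 0.61 against the whole primed tag as the lowest value. Against the naive core, 1 of 8 members was higher and 0 were lower, beside 11.8% and 5.34% of 10276 genes. This was Prkab2, at 0.76 (0.58 to 1.01), which 90.7% of the genes compared did not reach.

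The passaged cells gave the fewest called genes of all comparisons. In the d16+10p core against the Dppa5a-high cells, 0 of 7 members were higher and 0 lower, beside 2.84% and 7.09% of 10197 genes. Prkab1, at 0.49 (0.33 to 0.70), and Prkaa2, at -0.47 (-0.74 to -0.28), came closest. In the d16+10p core against the naive core, 0 of 8 members were higher and 1 was lower, beside 4.42% and 3.72% of 9957 genes. Camkk2 had a log2 ratio of -0.67 (-1.10 to -0.40), and at 5000 reads per cell one of -0.28. Prkag2, at 0.52 (0.26 to 0.89), and Prkab2, at 0.40 (0.20 to 0.64), had ratios short of 1.5-fold. The naive core, the primed core and the Dppa5a-high cells each enter several of these comparisons, so the ratios are not independent of each other.

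The choice of scaling bears on the comparisons of the Dppa5a-high cells. TMM scaling moved the median log2 ratio of all genes by -0.18 against the primed core, by -0.14 against the naive core and by 0.14 in the d16+10p core against the Dppa5a-high cells. The share of called genes that were higher went from 68.3% to 47.6%, from 68.8% to 46.1% and from 28.6% to 55.4%. Prkab1 then passed 1.5-fold in all 3, with log2 ratios of -0.73, -0.61 and 0.62, and Camkk2 did so against the naive core, at -0.61. Without TMM that median was 0.09, 0.11 and -0.08. Under TMM, Prkaa2 stayed called against the primed core, at 1.14, and Prkab2 against the naive core, at 0.63.

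**Figure D2:**
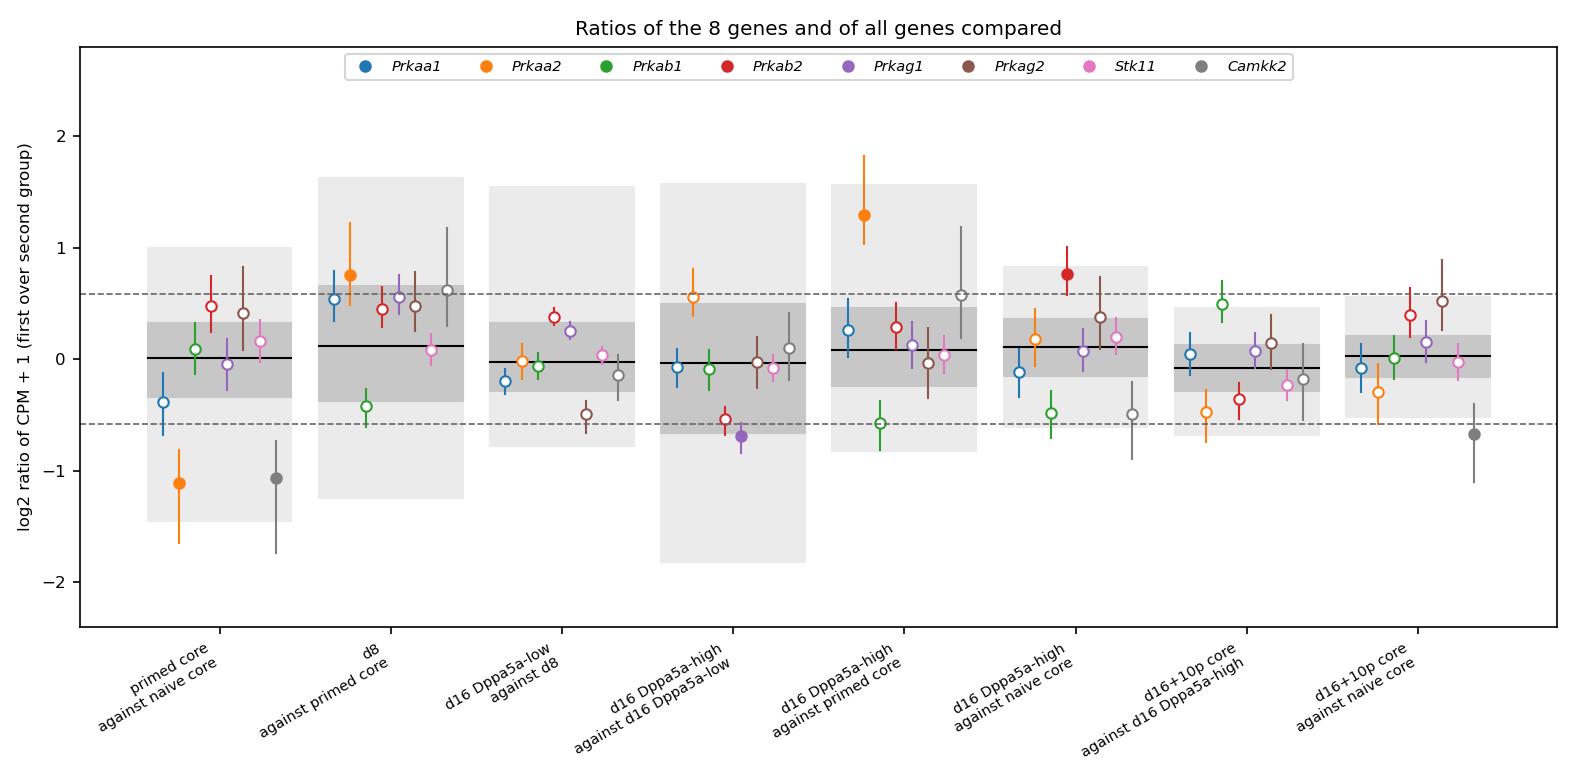
Log2 ratio of CPM + 1 (y axis) in 8 comparisons (x axis) for the 8 genes, as points with exact 95% intervals of the ratio, filled where called; grey boxes span the 5th to 95th (light) and 25th to 75th (dark) percentiles of all genes compared, black lines their median, and dashed lines mark 1.5-fold. Of 64 points 7 are filled, the widest being Prkaa2 at 1.29 in the d16 Dppa5a-high cells against the primed core.

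The balance between the genes of a subunit was followed as the share of the first in the reads of both. Prkaa1 made up 60.1% of α reads in the naive core (55.6 to 64.5%), 72.7% in the primed core (66.6 to 78.2%), 68.6% at d8 (67.5 to 69.8%), 65.8% in the Dppa5a-low cells (63.1 to 68.6%), 54.7% in the Dppa5a-high cells (51.2 to 58.2%) and 63.9% in the d16+10p core (60.4 to 67.4%). The intervals of the primed core and of both the naive core and the Dppa5a-high cells did not overlap. Prkab1 made up 58.7% of β reads in the naive core (54.7 to 62.7%), 51.9% in the primed core (47.7 to 56.1%), 36.6% at d8 (35.7 to 37.5%), 29.8% in the Dppa5a-low cells (27.9 to 31.6%), 36.8% in the Dppa5a-high cells (33.9 to 39.7%) and 51.8% in the d16+10p core (48.9 to 54.6%). This was the widest spread of the 3 subunits, 29.0 percentage points, and the d16 Dppa5a-high cells lay with d8, outside the intervals of the 3 cores. For the primed cells this needed the core: over the whole primed tag the Prkab1 share was 37.8% (35.5 to 40.2%), which overlapped the Dppa5a-high cells. Prkag1 made up 75.6% of γ reads in the naive core (71.5 to 79.3%), 68.6% in the primed core (63.8 to 73.1%), 69.6% at d8 (68.7 to 70.4%), 79.7% in the Dppa5a-low cells (77.9 to 81.4%), 71.0% in the Dppa5a-high cells (67.9 to 74.0%) and 69.9% in the d16+10p core (67.0 to 72.7%). Shares are of reads and not of molecules or protein, and they depend on how well each transcript is captured, so only their differences between groups are of use.

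**Figure D3:**
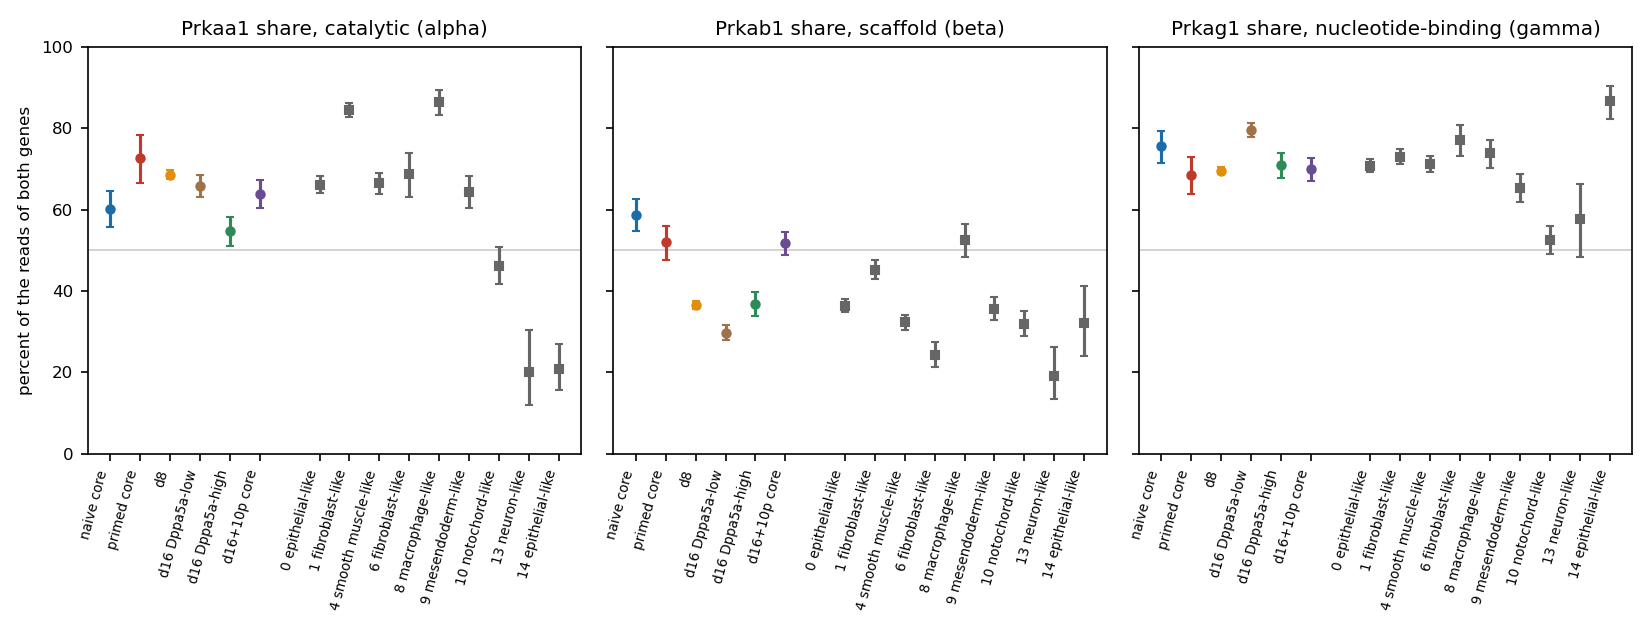
Share of Prkaa1, Prkab1 and Prkag1 in the reads of both genes of their subunit (y axis, percent) in 6 groups of cells (circles) and in 9 named clusters (squares), with exact 95% binomial intervals. The share of Prkaa1 falls from 86.6% in macrophage-like cells to 20% in neuron-like cells, and that of Prkab1 is lowest in the neuron-like cells, at 19.2%.

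The clusters showed wider differences than the stages, in part by construction. The d8 and Dppa5a-low groups mix cells of many of these clusters, and some clusters gave few reads. There were 15 clusters of at least 100 cells, named "-like" from marker genes where these allowed it, and the cells of a cluster came from several tags. Prkaa2 ranged from 3.53 CPM in macrophage-like cells (820 of 940 from d8) to 54.9 CPM in cluster 14, a small epithelial-like cluster of 172 cells with Krt19, Krt7, Krt8 and Krt18, a 15.5-fold span. Cluster 14 also had 54.3 CPM of Cldn4 and 127 CPM of Cldn6, but its Epcam, at 64.1 CPM, was below the 145 CPM of the primed home cluster. It further had 37.8 CPM of Des, a muscle gene, and 135 CPM of Cd68, a macrophage gene. The level of Prkaa2 in macrophage-like cells was 28.8% of that over all cells, whereas the primed core was at 52.8%. The former lies in the upper part of the background range, which rests on Csf1r and Cd68 alone. Neuron-like cells (267 cells, with Tubb3, Dcx and Elavl3) had 35.3 CPM and notochord-like cells (741 cells, with T, Shh and Nog, but with Noto at 0.0942 CPM and less Foxa2 and Chrd than the mesendoderm-like cells) 23.9 CPM, and each of these 3 steps in the order was beyond counting error. Fibroblast-like cells of cluster 1, mostly from d8, had 5.63 CPM. Prkaa1 went the other way in part. It was lowest in neuron-like cells, at 8.83 CPM from 16 reads, and in cluster 14, at 14.5 CPM from 44 reads. In neuron-like cells this was 37% of its level over all cells, in the same upper part of the background range. Prkaa1 was highest in the fibroblast-like cluster 1, at 30.8 CPM. Prkaa1 thus made up 20% of α reads in neuron-like cells (11.9 to 30.4%), 20.9% in cluster 14 (15.6 to 27.0%) and 46.2% in notochord-like cells (41.6 to 50.8%), against 84.5% in the fibroblast-like cluster 1 and 86.6% in macrophage-like cells. In neuron-like cells, 18.8% of the Prkaa1 reads came from a single cell.

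The β and γ genes differed between clusters as well. Prkab2 ranged from 15.2 CPM in macrophage-like cells to 69.5 CPM in neuron-like cells. It was at 57.4 CPM in notochord-like and 56.4 CPM in mesendoderm-like cells (867 cells, with Lhx1, Cer1 and Gsc). In macrophage-like cells Prkab2 was at 41% of its level over all cells, in the part of the background range that rests on Csf1r and Cd68. Of the 4 Pou5f1-high clusters, the naive home had 19.5 CPM, the d16+10p home 26.3, the primed home 28.2 and the d16 home 32.8. Prkab1 spanned 13.2 CPM in cluster 14 to 31.2 CPM in mesendoderm-like cells, and the primed, naive and d16+10p home clusters were among its 5 highest. Prkag1 was highest in cluster 14, at 83.2 CPM, followed by cluster 2, an unnamed d16 cluster led by Fabp7, at 56.5 CPM, and lowest in macrophage-like cells, at 25.4 CPM. B130046B21Rik, on the other strand, was at 3.29 CPM in cluster 14. Prkag2 was highest in notochord-like cells, at 39.1 CPM, with 29.2 CPM in neuron-like cells, 24.8 CPM in cluster 3 and 8.996 CPM in macrophage-like cells. Prkag1 made up 52.6% of γ reads in notochord-like cells (49.2 to 55.9%) and 86.6% in cluster 14 (82.2 to 90.3%).

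Camkk2 was highest in neuron-like cells, at 16.6 CPM, and in macrophage-like cells, at 14.2 CPM, which did not differ beyond counting error. It was lowest in cluster 14, at 2.96 CPM from 9 reads. That was 40.7% of its level over all cells, in the part of the background range that rests on Csf1r and Cd68. In cells thinned to 5000 reads, a Camkk2 read was found in 8.97% of neuron-like and 6.01% of macrophage-like cells and in 2.44% of cluster 14. Stk11 had the narrowest span, from 36.4 CPM in the fibroblast-like cluster 1 to 76.3 CPM in cluster 14, and the other 13 clusters lay between 39.3 and 55.4 CPM. Cbarp, the gene that overlaps it, was at 105 CPM in neuron-like cells, where Stk11 was at 49.6 CPM. In cluster 14, Cbarp was at 44.7 CPM beside the 76.3 CPM of Stk11, and in the 6 groups it was at 10.7 to 38.8 CPM. Cluster 14 held the highest levels of Prkaa2, Prkag1 and Stk11 and the lowest of Prkab1. The same cluster had reads of Stk11 in 33.5% and of Prkag1 in 31.7% of its thinned cells. Its cells were mostly from d8 (152 of 172), and no replicate of it exists.

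**Figure D4:**
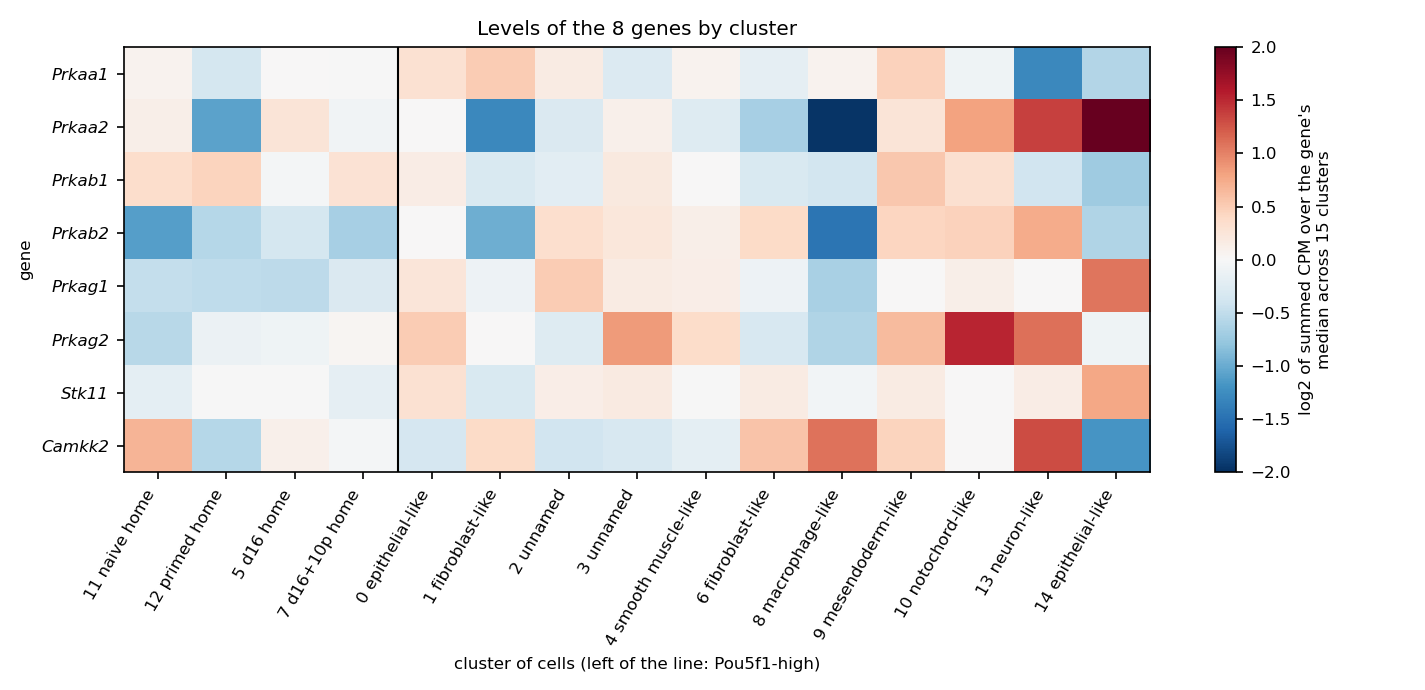
Log2 of the summed CPM of each gene (rows) over its median across 15 clusters (columns), with the 4 Pou5f1-high clusters on the left; red is above and blue below the median. Prkaa2 runs from 3.53 CPM in macrophage-like cells to 54.9 CPM in the epithelial-like cluster 14, and Stk11 is the most even gene.

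Reads were too few to follow whole trimers in single cells. In cells thinned to 5000 reads, at least 1 read of an α, a β and a γ gene together was found in 0.392% of the naive core (0.0475 to 1.41%), 0.244% of the primed core, 0.857% of d8 cells (0.675 to 1.07%), 0.849% of the Dppa5a-low cells, 0.485% of the Dppa5a-high cells and 0.915% of the d16+10p core. All these intervals overlapped that of the naive core. Between 51.1% and 58.6% of the cells had no read of any of the 6 subunit genes at this depth. Without thinning, a read of a given member was found in 8.61% (Camkk2) to 38.8% (Stk11) of all 17720 cells.

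Genes around AMPK were counted from 4 lists: 12 other regulators of AMPK, 13 AMPK-related kinases that LKB1 also activates or that resemble AMPK, 17 substrates and 9 genes of the p38 pathway. Among the regulators, 5 of 8 that entered were higher and 0 lower in d8 than in the primed core, beside the background of 27.7% given above. These were Fnip1 (65.4 against 22.1 CPM) and Fnip2 (61.4 against 20.9), whose products bind folliculin and AMPK, Flcn, which encodes folliculin (42.4 against 25.1), Stradb, a pseudokinase partner of LKB1 (11.3 against 4.79), and Map3k7, which encodes TAK1 (56.5 against 36.8). In the other 7 comparisons, at most 1 regulator was higher and at most 1 lower, of 7 to 9 that entered. In these, 2.84% to 21.6% of all genes were higher and 3.72% to 27.4% lower. Cab39l, which encodes an MO25 partner of LKB1, was at 28.8 CPM in the Dppa5a-high cells and between 13.4 and 19.5 CPM in the other 5 groups, and was called against the Dppa5a-low cells, the naive core and the d16+10p core.

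Of the AMPK-related kinases, 3 of 8 were higher and 1 lower in d8 than in the primed core, beside 27.7% and 17.7% of all genes: Nuak1 was at 138 against 44.6 CPM, Mark4 at 28.6 against 15.1, Snrk at 19.5 against 11.97, and Melk, a kinase of dividing cells, at 10.8 against 36.4. In the Dppa5a-high against the Dppa5a-low cells (21.6% and 27.4% of all genes), 1 of 9 was higher (Melk, 40.8 against 13.95 CPM) and 2 were lower (Nuak1, 39.0 against 67.7, and Snrk, 9.58 against 21.1). From d8 to the Dppa5a-low cells (16.1% and 8.68%), 1 of 8 was higher (Sik1, 24.5 against 11.7 CPM) and 1 lower (Nuak1, 67.7 against 138). Sik1 was also the 1 of 8 called in the primed core, lower than in the naive core (10.1 against 19.5, beside 12.3% and 14.8%). It was the 1 of 9 called in the Dppa5a-high cells, higher than in the primed core (24.2 against 10.1, beside 19.4% and 9.01%). None was called in the other 3 comparisons, where at most 9 entered. There, 2.84% to 11.8% of all genes were higher and 3.72% to 7.09% lower.

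Among the substrates, Ulk1, a kinase that starts autophagy, had the widest range across the pluripotent groups. It was at 61.2 CPM in the naive core, 18.5 in the primed core, 28.7 at d8, 30.2 in the Dppa5a-low cells, 103 in the Dppa5a-high cells and 83.8 in the d16+10p core. In the primed against the naive core, 2 of 13 substrates were higher and 1 lower, beside 12.3% and 14.8% of all genes (higher: Acaca, acetyl-CoA carboxylase, 39.4 against 25.9 CPM, and Pfkfb3; lower: Ulk1). In d8 against the primed core (27.7% and 17.7% of all genes), 2 of 13 were higher (Ulk1 and Foxo3) and 3 lower, among them Acaca (15.2 against 39.4 CPM) and Srebf1, a regulator of lipid synthesis (28.8 against 55.1). From d8 to the Dppa5a-low cells (16.1% and 8.68%), 5 of 15 were higher, among them Gys1, Ppargc1a, Tbc1d4 and Srebf1, and 1 was lower (Tbc1d1). In the Dppa5a-high against the Dppa5a-low cells (21.6% and 27.4%), 2 of 15 were higher (Ulk1 and Tbc1d1) and 5 lower (Ppargc1a, Tbc1d4, Gys1, Srebf1 and Hdac5). Gys1, muscle glycogen synthase, was at 62.1 CPM in the Dppa5a-low cells and between 15.3 and 25.9 CPM in the other 5 groups. The Dppa5a-high cells had 2 substrates higher (Ulk1 and Foxo3) and 2 lower (Acaca and Srebf1) than the primed core (19.4% and 9.01%), and 3 higher (Pfkfb3, Foxo3 and Ulk1) and 1 lower (Srebf1) than the naive core (11.8% and 5.34%), of 13 each. In the d16+10p core 3 were lower than in the Dppa5a-high cells (Pfkfb3, Tbc1d1 and Foxo3; 7.09% of all genes), and 1, Tbc1d1, lower than in the naive core (3.72%). Substrates are regulated as proteins, and their transcripts are no measure of AMPK activity.

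The p38 genes, which were listed because the study follows p38 downstream of AMPK, were counted in the same way. In the primed against the naive core (12.3% of all genes higher and 14.8% lower), 1 of 6 was higher and 1 lower: Mapk12, which encodes p38γ, was higher (15.7 against 3.57 CPM) and Map2k3, a kinase upstream of p38, lower (11.3 against 33.8). Mapk14, which encodes p38α, lay between 26.8 CPM in the Dppa5a-low cells and 46.1 CPM in the d16+10p core and was called in no comparison. In d8 against the primed core (27.7% and 17.7%) 3 of 6 were higher (Map2k3, Mapkapk3 and Mapkapk2) and 0 lower. From d8 to the Dppa5a-low cells (16.1% and 8.68%), 0 of 6 were higher and 2 lower (Mapkapk3 and Mapk12). In the Dppa5a-high against the Dppa5a-low cells (21.6% and 27.4%), 0 of 5 were higher and 1 lower (Mapkapk2, 27.7 against 62.3 CPM). The Dppa5a-high cells had Map2k3 and Atf2 higher and Mapk12 lower than the primed core, of 6 that entered (19.4% and 9.01%). Of 5 that entered, they had Mapkapk3 higher than the naive core (11.8% and 5.34%). In the d16+10p core, Mapkapk3 was lower than in the Dppa5a-high cells (2.84% and 7.09%). Map2k3 was lower there than in the naive core (21.7 against 33.8 CPM, beside 4.42% and 3.72%), of 5 in each comparison. Over the 4 lists, the median log2 ratio of the genes that entered lay between -0.41 and 0.67, beside medians of all genes between -0.08 and 0.12.

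Likeness of pattern was measured as Pearson's r of log2(CPM + 1) over the 15 clusters, among 11268 genes with at least 20 CPM in a cluster. The most alike were Dnajc25, Plekha3 and Tmem248 for Prkaa1 (r between 0.82 and 0.89), Cnst, Olfr1385 and Wdr31 for Prkaa2 (0.92 to 0.94), Nacc1, Rrp8 and Akap8 for Prkab1 (0.88 to 0.91), and Slc39a10, Zfp354c and Gm10222 for Prkab2 (0.93 to 0.95). For Prkag1 they were Tmem184c, D430042O09Rik and Hspb11 (0.93 to 0.94), for Prkag2 Zfp329, Pbrm1 and Ggps1 (0.88 each), for Stk11 Coro7, Tef and Hsd17b4 (0.93 each), and for Camkk2 Pip5k1c, Atp6v0a1 and Ttl (0.83 to 0.88). No member was among the 3 genes most alike to another member. Among the members, r was highest between Prkag1 and Stk11 (0.78) and between Prkab2 and Prkag2 (0.70), and lowest between Prkag1 and Camkk2 (-0.58) and between the catalytic genes Prkaa1 and Prkaa2 (-0.54). These values describe 15 clusters that share a library and differ in depth, and the highest r of many genes is high by selection.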

How the data were processed

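Cells of 5 populations were tagged, captured in BD Rhapsody microwells and amplified by TAS-Seq in a single cDNA library. The deposited values are raw counts: each is the whole number of reads that a gene symbol received in a cell. The authors trimmed reads with cutadapt 2.10, mapped them with Bowtie2 2.3.4.1 to Ensembl cDNA and ncRNA sequences (GRCm38), dropped barcodes under the knee-plot inflection and took out doublets by tag ratio. No doublet caller was run here. Since collapsing to molecules is not mentioned, each count was taken as a read, and intervals cover counting error only. Cells had from 3179 to 111822 reads, 307121033 in all 17720 together. Populations were taken from the tag that starts each column name.

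From these counts, cells were clustered with Seurat 5.3.0 (2000 variable genes, 56 components, 50 neighbours, resolution 0.8), leaving the 8 genes and the lists out of the variable genes. Requiring 500 genes and no more than 20% mitochondrial reads took out 0 cells. Reads were summed per group and scaled to a total of 1000000 (CPM). Sums have exact Poisson intervals, shares exact Clopper-Pearson intervals, and ratios conditional binomial intervals without the pseudocount of 1 CPM, at 95%. Cells are not replicates, so no p-value is given. For shares of cells, each cell was thinned to 5000 reads, which left out 6 to 755 cells in the 6 groups. TMM factors are from edgeR 4.0.16. The ratio and its interval were checked on simulated data. Sequences and positions are from GENCODE M21.

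All 8 members are named. Genes of the 4 lists are named only where called, at most 5 for each list and comparison, and 1 gene of the substrate list is not reported here by name. For likeness, the 3 genes with the highest r are named for each member, and Prkag3, Mapk14, Cbarp and B130046B21Rik were named after their values had been seen. Members, lists and settings were chosen with earlier results of these data known. Alternatives were a 2-fold threshold, a pseudocount of 10 CPM, TMM, the mean of single-cell CPM, thinning, cells with 2000 to 8000 genes (15628 of 17720), no filter on low genes, splits at 500 and 2000 CPM, whole tags, and resolutions of 0.4 and 1.2. Leaving the macrophage-like cells out of d8 was added after the data were seen.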

Additional observations from a re-analysis of the deposited data

How the results depend on the processing

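The 64 single-gene ratios were recomputed under 688 alternatives, of which 35 moved the value by more than the wider arm of its interval. The 7 called ratios kept their sign in 74 of 74 alternatives, but some of these could not have turned it. The 2-fold threshold and the missing filter on low genes leave a ratio as it is, so they could not move any value. A larger pseudocount shrinks a ratio but keeps its sign. Calls that were lost are given next. The number of members past the threshold is given per comparison. It was 2 in the primed against the naive core, and 1 with a pseudocount of 10 CPM (Prkaa2, lower) and 1 at 5000 reads per cell, where Prkaa2 and Camkk2 were no longer called and Prkab2 was called higher (0.63). Over whole tags it was again 2, with Prkab2 (0.75) and Prkag2 (0.61) called higher. Prkaa2 was then short of 1.5-fold, and Camkk2 was past it (-0.78) but under the 10 CPM needed to enter. In d8 against the primed core it was 1, and 0 at 2-fold, 0 with the pseudocount of 10, 0 over whole tags, 4 by the mean of single-cell CPM, and 2 at 5000 reads, with 2000 to 8000 genes, without a filter on low genes, at resolution 0.4 and without macrophage-like cells in d8 (chosen after seeing the data). In the Dppa5a-low cells against d8 it was 0, and 1 by the single-cell mean and at 5000 reads. In the Dppa5a-high against the Dppa5a-low cells it was 1, and 0 at 2-fold and with the pseudocount of 10, 3 by the single-cell mean and 2 at 5000 reads. Against the primed core it was 1, and 2 with TMM, at 5000 reads and at resolution 0.4. Against the naive core it was 1, and 0 at 2-fold, with the pseudocount of 10 and over whole tags, and 3 with TMM. In the d16+10p core against the Dppa5a-high cells it was 0, and 1 with TMM and by the single-cell mean, and 2 at 5000 reads. Against the naive core it was 1, and 0 at 2-fold, with the pseudocount of 10 and over whole tags, while at 5000 reads Camkk2 was lost and Prkab2 was called higher (0.65). A higher threshold or pseudocount lowers such counts by construction, and a gene that does not enter cannot be called. The cause of the other changes was not tested.

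The spread of the Prkag1 share between groups went from 11.1 percentage points to 19.1 at 5000 reads and 21 over cells with a read. At 10000 reads per cell, reads of all 3 subunits were found in 2.07% of the naive core, 2.11% of the primed core, 3.61% of d8, 4.03% of the Dppa5a-low cells, 2.86% of the Dppa5a-high cells and 2.51% of the d16+10p core. Over whole tags, the share of called genes that were higher went from 45.4% to 60.8% in the primed against the naive cells, from 61% to 47.3% in d8 against the primed cells, and from 68.3% to 47.6% in the Dppa5a-high against the primed cells. At 2-fold it went from 65% to 75.9% in the Dppa5a-low cells against d8. The number of all genes called in the 8 comparisons, in the order above, was 2764, 4717, 2697, 5566, 2954, 1759, 1013 and 810. It fell to 1280, 2413, 1284, 3156, 1343, 478, 245 and 227 at 2-fold and rose to 5591, 7524, 4738, 9147, 6167, 4007, 2445 and 2133 without a filter on low genes. With the pseudocount of 10 CPM it was 1801, 3394, 1767, 4169, 1908, 853, 457 and 370. It was 1669 in the primed against the naive core at 5000 reads, and 2092 in d8 against the primed cells over whole tags. No paired analysis was possible because each population was 1 sample, and for the same reason no sample could be left out. Genes at these levels gave few reads per cell, so a cell without a read need not lack the transcript.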
